A study of Mus musculus with 8 samples.

Results

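Ribosome footprints were compared with input RNA, gene by gene, in immature olfactory neurons that retained Mex3a. The ranking held the 9354 of 22553 genes (41.5%) in the deposited table that had at least 50 coding-sequence counts in both the footprint and the RNA column of the Ngn1 control, the sorted Ngn1-GFP cells without Cre. Members were thus selected on these counts. Another 17 genes met that minimum and were left out, because their RNA level was 8-fold or more above each of the other 3 RNA columns. For each gene the share of all footprints was divided by the share of all RNA counts. The median of this ratio over the 9354 genes was 1.21, and every log2 ratio below is given as the difference from that median. A gene with a log2 ratio of 0 therefore held footprints at the typical rate for its RNA. The same values chose and ranked the genes, so the ranking is a description and carries no test.

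All cells were sorted from the main olfactory epithelium of mice, where horizontal and globose basal cells give rise to olfactory sensory neurons. The Ngn1 control cells carried the Ngn1-GFP transgene with Mex3a fl/fl or fl/+ and no Cre, and are labelled as immediate neuronal progenitors and immature olfactory sensory neurons. The Ngn1 KO carried Mex3a fl/fl, a Cre allele and Ngn1-GFP. The OMP control consisted of mature neurons with OMP-ires-GFP, Mex3a fl/fl or fl/+ and no Cre. The OMP KO carried Mex3a fl/fl and the same Cre allele; its genotype tag names OMP-ires-Cre, its description OMP-ires-GFP. Ages of the mice are not given in the labels. The labels list 8 footprint libraries, 2 per group, but every group is present as a single footprint column and a single RNA column. No spread between libraries could be measured, and every interval below is an exact 95% binomial interval that covers counting error only.

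A translating ribosome shields a short stretch of mRNA from nuclease, and sequencing these stretches counts ribosomes by gene. Dividing footprints by RNA gives a measure known as translational efficiency, which reflects mainly how often ribosomes start on an mRNA and how long they stay on it. Known controls include 5′-terminal oligopyrimidine (TOP) tracts on mRNAs of the translation machinery, which depend on mTOR signalling, and upstream open reading frames on stress-response mRNAs. Maturing olfactory neurons also pass through a stress signal of the endoplasmic reticulum (ER) when they choose a receptor.

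The Ngn1 control columns held 4456989 footprints and 89327877 RNA counts, and the other groups 3031489 to 4100841 footprints and 26946592 to 31855259 RNA counts. In the control, 50 footprints stood for 11.2 CPM (counts per 1e6 counts of the column) and 50 RNA counts for 0.560 CPM, so the minimum was far stricter on footprints. It removed 5794 genes with enough RNA and too few footprints. Mex3a RNA was 23.6 CPM in the Ngn1 KO against 108 CPM in the Ngn1 control, and 1.41 CPM in the OMP KO against 12.1 CPM in the OMP control. All 8 marker genes of immature neurons were found in the Ngn1 control, with a summed RNA level of 3709 CPM there, 3831 CPM in the Ngn1 KO, 2255 CPM in the OMP control and 2179 CPM in the OMP KO. The 6 precursor markers summed to 1759 CPM in the Ngn1 control, 2239 CPM in the Ngn1 KO, 143 CPM in the OMP control and 141 CPM in the OMP KO. The 6 mature markers were present as well, at 5777 CPM in the Ngn1 control, 6785 CPM in the Ngn1 KO, 10162 CPM in the OMP control and 11442 CPM in the OMP KO. The Ngn1 control thus held precursor, immature and mature transcripts together.

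The ratio varied widely among genes. The middle 50% of genes lay between log2 ratios of -0.77 and 0.71, and the 5th and 95th percentiles were 15.4-fold apart. The typical counting interval was 0.207 to either side of a gene's log2 ratio, against an SD over genes of 1.19. A gene was called high or low when it lay at least 2-fold from the median and its interval excluded the median. By this call 1620 genes (17.3% of 9354) were high and 1817 genes (19.4%) were low. Set against equal shares of the column totals in place of the median, 2302 genes were high and 1342 low, so which side held more genes turned with the centring. At the edges of the rule, Rcl1, Armt1, Olfr1192-ps1 and U2af1 entered with 50 footprints, at log2 ratios of 0.01, -1.01, -0.16 and -2.61. Otx1, Iglon5, Plagl1 and Rab12 missed it with 49 footprints, at 0.98, 1.57, 0.18 and -2.12. At the RNA minimum, Pglyrp1 entered with 59 RNA counts, whereas Cyp2e1 missed it with 48. At the 8-fold limit, Usmg5 (7.33-fold) and Hist1h2bk (7.97-fold) stayed in, whereas Ermard (8.08-fold) and Tubb2a (8.33-fold) were left out. Among the 17 left out were 9 clustered histone genes.

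**Figure D1:**
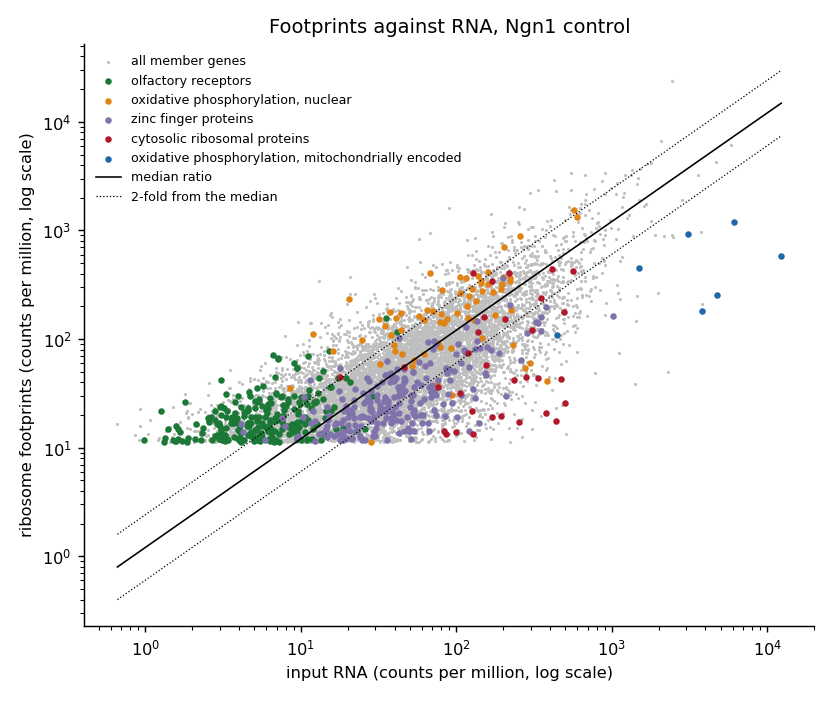
Footprint level against RNA level of the 9354 genes in the Ngn1 control, both in CPM on log axes, with 5 gene classes in colour. The line marks the median ratio of 1.21 and the dotted lines 2-fold either side; no point lies under 11.2 CPM of footprints, which is the 50-count minimum.

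Banf1, a small DNA-bridging protein of the nuclear envelope, stood at the top of the ranking. It lies at chr19:5364633-5366876 (GRCm38.p6) and has a coding length of 270 bases. It had 1542 footprints on 1173 RNA counts in the Ngn1 control, against 733 on 320 in the Ngn1 KO, 606 on 356 in the OMP control and 529 on 218 in the OMP KO. Its log2 ratio was 4.45 (4.34 to 4.56) in the Ngn1 control, 4.27 in the Ngn1 KO, 3.84 in the OMP control and 3.97 in the OMP KO. Prnp, the prion protein gene at chr2:131909928-131938436, had 7181 footprints on 8032 RNA counts. Its log2 ratio was 3.89 (3.84 to 3.94) in the Ngn1 control, 3.78 in the Ngn1 KO, 3.86 in the OMP control and 3.78 in the OMP KO. B2m, the light chain of MHC class I, had a log2 ratio of 3.21 in the Ngn1 control and 2.88 to 3.36 in the other groups. Banf1, Prnp and B2m were therefore at similar ratios in the Ngn1 and the OMP columns.

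Several other genes at the top are known from supporting cells and glands rather than neurons. Aqp3, a water and glycerol channel, had 1660 footprints on 1838 RNA counts and a log2 ratio of 3.91. The secreted airway proteins Bpifa1 and Bpifb3 had log2 ratios of 3.59 and 3.62, the cytochrome P450 Cyp2f2 had 3.52, and the secretoglobin Scgb1c1 had 3.26. Serinc5 (12.1-fold above the median), the glutathione transferase Mgst1 (3.33) and Ly6e (3.31) completed this end. Serinc5, Mgst1 and Ly6e are not assigned to a cell type here. In every other group in which they were measured, Bpifa1, Bpifb3, Cyp2f2 and Scgb1c1 had lower ratios than in the Ngn1 control; Cyp2f2 had 2.66 in the Ngn1 KO, 1.14 in the OMP control and 2.13 in the OMP KO.

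Over the whole list of sustentacular genes, the supporting cells of the epithelium, 16 of the 22 members were high and none was low, with a median of 1.93 in the Ngn1 control, against 17.3% of all genes high and 19.4% low. For the 9 of them measured in all groups the medians were 2.09 in the Ngn1 control, 1.59 in the Ngn1 KO, 1.18 in the OMP control and 0.87 in the OMP KO. All 11 nasal gland genes in the ranking lay above 0, with 10 high. Another 3 gland genes had enough RNA and too few footprints, and one with little RNA could enter only with a high ratio. The 5 sustentacular markers summed to 862 CPM of RNA in the Ngn1 control, 129 CPM in the Ngn1 KO, 61.3 CPM in the OMP control and 249 CPM in the OMP KO. In such bulk samples fewer cells of a type and less RNA per cell cannot be told apart. The part of these cells in other genes' ratios was not tested.

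**Figure D2:**
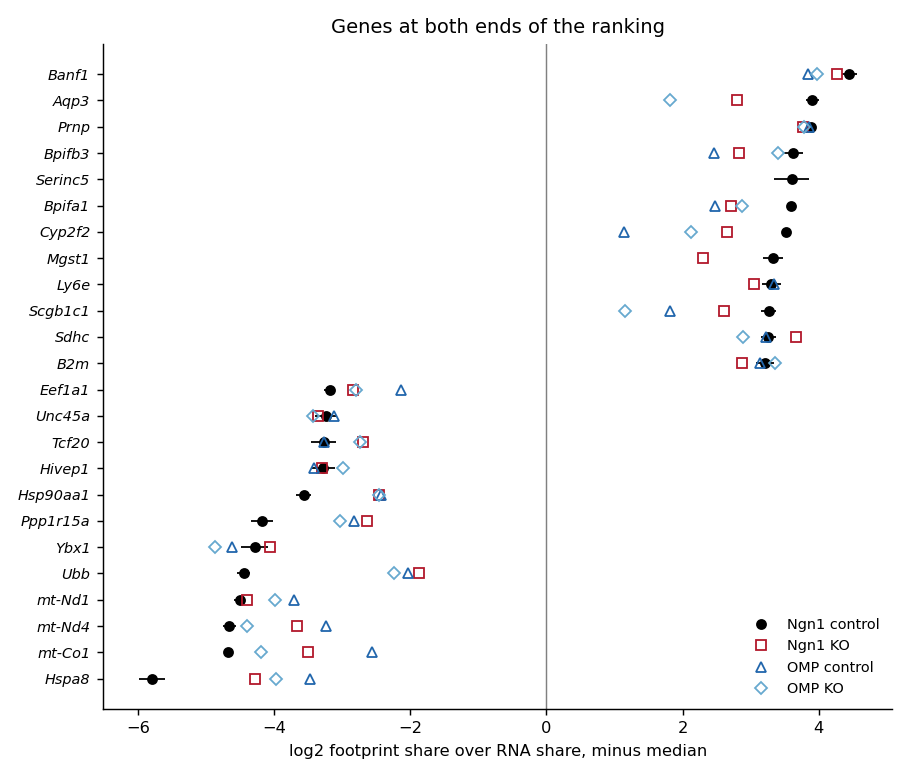
Log2 ratio of the 12 highest and 12 lowest genes with at least 200 counts in both columns, by the interval bound nearest the median, in the Ngn1 control (black, bars are 95% counting intervals) and in the other 3 groups where both columns had 50 counts. Banf1, Prnp, Sdhc and B2m lie together in all groups, whereas Hspa8 and Ubb are lower in the Ngn1 control than in the other groups.

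Hspa8, the constitutive heat shock protein Hsc70, was at the bottom of the ranking. It lies at chr9:40801276-40805202 and had 223 footprints on 204845 RNA counts in the Ngn1 control, against 209 on 34336 in the Ngn1 KO, 444 on 41436 in the OMP control and 370 on 37600 in the OMP KO. Its log2 ratio was -5.79 (-5.99 to -5.60) in the Ngn1 control, -4.29 in the Ngn1 KO, -3.47 in the OMP control and -3.98 in the OMP KO. The polyubiquitin gene Ubb had a log2 ratio of -4.45 in the Ngn1 control and -1.87 to -2.24 in the others. Its footprints were 210 CPM in the Ngn1 control and 157 to 200 CPM elsewhere, whereas its RNA was 3798 CPM in the Ngn1 control and 668 to 729 CPM elsewhere. Ubb thus lay below the median in every group. Its still lower ratio in the Ngn1 control came with a raised RNA column rather than with fewer footprints. Hsp90aa1 showed the same layout, with 1428 CPM of RNA in the Ngn1 control and 725 to 736 CPM elsewhere. By contrast, the zinc finger factor Hivep1 was at -3.28 in the Ngn1 control and -2.99 to -3.42 elsewhere, the coregulator Tcf20 at -3.27 and -2.69 to -3.27, and the myosin chaperone Unc45a at -3.24 and -3.12 to -3.43.

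Mitochondrially encoded genes held few footprints for their RNA. All 7 in the ranking were low, against 19.4% of all genes, with a median of -2.63. The other 6 of the 13 in the table fell short of the footprint minimum. mt-Co1, a subunit of cytochrome c oxidase, held 1.23% of all RNA counts and 0.0578% of the footprints. Its log2 ratio was -4.69 in the Ngn1 control, -3.51 in the Ngn1 KO, -2.55 in the OMP control and -4.19 in the OMP KO. mt-Nd5 and mt-Nd2, subunits of complex I, were the highest of the class at -2.01 each. These mRNAs are translated inside mitochondria by a separate set of ribosomes.

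The nuclear genes of oxidative phosphorylation lay on the other side. Of 69 in the ranking, 25 (36.2%) were high and 7 (10.1%) low, against 17.3% and 19.4% of all genes, and their median was 0.67. Sdhc and Sdhd, the membrane anchors of succinate dehydrogenase, led the class. Sdhc had 1046 footprints on 1808 RNA counts and a log2 ratio of 3.26 in the Ngn1 control, 3.67 in the Ngn1 KO, 3.22 in the OMP control and 2.88 in the OMP KO. Sdhd had 2.95 in the Ngn1 control and 2.56 to 2.81 elsewhere, and Ndufa4 had 2.29 and 1.94 to 2.29. Cox6c was the lowest at -3.48 in the Ngn1 control, against -0.99 to -1.48 elsewhere. Over the 67 members measured in all groups the median was 0.75 in the Ngn1 control, 0.82 in the Ngn1 KO, 0.93 in the OMP control and 0.57 in the OMP KO. These are short genes, with a median coding length of 451 bases, and against genes of like length the median was 0.30.

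Other classes had medians on either side of 0, read against 17.3% of all genes high and 19.4% low. Mitochondrial ribosomal proteins had a median of 0.45 (16 of 68 high, 4 low), which was 0.016 against genes of like coding length. Aminoacyl-tRNA synthetases had 0.60 with 3 of 20 high, a share no larger than that of all genes, and 0 low. Proteasome subunits had 0.61 (9 of 33 high, 1 low) and 0.24 at like length. Translation initiation factors had -0.32 (5 of 46 high, 12 low), and TOP mRNAs other than ribosomal proteins had -1.02 (2 of 18 high, 9 low). The V-ATPase, the proton pump of secretory and synaptic vesicles, had 0.86 (9 of 19 high, 2 low) and 0.40 at like length, and solute carriers had 0.59 (49 of 137 high, 8 low). For genes of ER translocation, folding and stress the median was 0.77, with 10 of 25 high and 2 low. Ssr2 and Sec61a1, parts of the ER translocation machinery, had 2.86 and 2.05, whereas Eif2ak3, the ER stress kinase PERK, had -1.39.

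Stress-response genes with regulatory upstream reading frames were below the median without exception among the 12 in the ranking. Their median was -1.33, with 7 low and 0 high, against 19.4% of all genes low and 17.3% high. Ppp1r15a, which returns eIF2alpha to its active state after stress, had 329 footprints on 98891 RNA counts and a log2 ratio of -4.18 in the Ngn1 control, -2.63 in the Ngn1 KO, -2.82 in the OMP control and -3.03 in the OMP KO. Atf4, the transcription factor of the integrated stress response, had 390 footprints on 47704 RNA counts and a log2 ratio of -2.88 in the Ngn1 control, against -2.33 to -3.52 in the other groups. Ddit3, which encodes CHOP, had -2.32. Atf5, a factor of olfactory neuron maturation, held 5806 footprints and was close to typical in the Ngn1 cells, at -0.21 in the Ngn1 control and 0.06 in the Ngn1 KO, with -1.17 in the OMP control and -0.86 in the OMP KO. Over the 12 genes the medians were -1.33 in the Ngn1 control, -1.61 in the Ngn1 KO, -1.55 in the OMP control and -1.05 in the OMP KO. With 1 column per group and assay, these differences between groups were not tested.

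Cytosolic ribosomal proteins had the lowest median of the classes with at least 10 members, but this value rested on which genes could be counted. Of 85 in the table, 82 had at least 50 RNA counts and only 32 passed the footprint minimum. Those 32 had a median of -1.86, with 20 low and 2 high, against 19.4% and 17.3% of all genes. Rps6, a phosphoprotein of the small subunit, had 0 footprints on 33361 RNA counts in the Ngn1 control, and 0 footprints in the other groups on 3339 RNA counts in the Ngn1 KO, 2482 in the OMP control and 2063 in the OMP KO. A count of 0 allows at most 3 footprints, which places Rps6 at or below a log2 ratio of -9.39. Rpsa and Rpl5 likewise had 0 footprints on 67719 and 53360 RNA counts. At the other end Rps25 had 1802 footprints on 11447 RNA counts and a log2 ratio of 1.38 in the Ngn1 control, 2.65 in the Ngn1 KO, 3.26 in the OMP control and 2.34 in the OMP KO. Members of the same particle thus lay on both sides of the median.

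RefSeq names a pseudogene after 64 of the 81 ribosomal protein genes with at least 1000 RNA counts, and 42 of these 64 had fewer than 50 footprints. Of the 17 without such a pseudogene, 7 had fewer than 50. With the footprint minimum dropped, the medians were -6.38 for the 64 and -1.07 for the 17. Among all other genes, 69 of 193 with a named pseudogene fell short of 50 footprints, against 887 of 8865 without. Ptma (5 footprints on 148372 RNA counts), Ppia (0 on 62871) and Tmsb10 (0 on 26015) are abundant mRNAs of other classes at the same end. How the authors' pipeline treated reads that align to several places is stated neither in the labels nor in the file, and its part was not tested. Low ratios of such genes, Eef1a1, Ubb and Ybx1 in the ranking included, are therefore uncertain. Only pseudogenes named after the gene were looked for, and copies under other names were not. Genes without such a name, Hspa8, Hsp90aa1 and mt-Co1 among them, are thus not shown to be free of this doubt.

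The start of the transcript was searched for a run of C or T bases, as in the TOP tracts of many translation-machinery mRNAs. The 30 bases around the RefSeq start (GRCm38.p6, 10 before the start and 20 from it, on the transcript's strand) are shown for genes from both ends of the ranking. Capitals mark a run of at least 5 C or T bases that begins with C near the start, at most 5 bases after it. A sequence without capitals has none there. Runs that begin further on, as in Banf1 and Prnp, are not marked.
Rps6 (chr4:86857348-86857377, minus strand, 0 footprints): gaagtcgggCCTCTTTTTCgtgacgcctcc
Rps24 (chr14:24490668-24490697, plus strand, log2 ratio -4.46): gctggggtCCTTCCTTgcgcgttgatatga
Eef1a1 (chr9:78481705-78481734, minus strand, log2 ratio -3.19): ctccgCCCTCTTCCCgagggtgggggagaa
Rps25 (chr9:44407704-44407733, plus strand, log2 ratio 1.38): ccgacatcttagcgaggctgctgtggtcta
Banf1 (chr19:5366857-5366886, minus strand, log2 ratio 4.45): gcggggcaggaaaacgcattctcctcggag
Prnp (chr2:131909918-131909947, plus strand, log2 ratio 3.89): gcctgccccgCCCCTTTCCactcccggctc
Gfy (chr7:45179578-45179607, minus strand, log2 ratio 3.01): cacctgtgtgCCTCTgggaccctactgcct

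A run of this kind was present at the start of 5614 of 27025 RefSeq promoters (20.8%). It was found in 29 of 61 ribosomal protein genes with at least 50 RNA counts and a start in the table (47.5%). Among 7462 member genes with a start, the share was 22.2% in high genes and 21.1% in low genes, against 21.4% of all members. The median log2 ratio was 0.03 with the run and -0.02 without it. Prnp and Gfy, near the top, carry a run, and so do Rps24 and Eef1a1, near the bottom. Among members, the run at the annotated start did not separate high from low genes in these columns. The footprint minimum left out 50 ribosomal protein genes, Rps6 included. A run of this kind is also present at 20.8% of all promoters, so it does not mark TOP tracts alone. The comparison therefore cannot decide whether TOP tracts go with low ratios.

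Gfy, which encodes a Golgi membrane protein of olfactory neurons, held more footprints than any other gene. It lies at chr7:45176349-45179597, and its 105622 footprints were 2.37% of the Ngn1 control total, against 0.244% of RNA counts. Its log2 ratio was 3.01 in the Ngn1 control, 2.34 in the Ngn1 KO, 2.57 in the OMP control and 2.47 in the OMP KO. Of the other genes with many footprints, Fstl5, a secreted follistatin-like protein, had 29496 footprints and a log2 ratio of 1.40. Map1b, a microtubule-associated protein of growing axons, had -0.40. The amyloid precursor family members App and Aplp2 were 1.99-fold and 2.19-fold above the median.

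Lists of neuronal stage genes had medians nearer the middle. The median was 0.36 for 20 precursor and commitment genes, 0.32 for 25 immature neuron genes and 0.18 for 34 mature neuron genes. Summed over all its genes, the mature list held 5.60% of footprints on 2.47% of RNA counts, a log2 ratio of 0.91. Gfy is in this list and alone held 2.37% of footprints on 0.244% of RNA counts, so the sum leans on this gene. Marcksl1, an actin-linked substrate of protein kinase C, was the lowest immature gene at -3.01, and the chemokine receptor gene Cxcr4 the highest, ahead of the axon growth gene Crmp1 at 1.29. Stmn1, a microtubule-destabilizing marker of immature neurons, had 31 footprints on 101662 RNA counts and did not enter the ranking. Among presynaptic genes the range was wide, with the vesicle proteins Syp at 1.77 and Vamp2 at 1.45, and the large active zone proteins Rims1, Rims2 and Bsn at -3.03, -2.17 and -2.10. Mex3a itself, an RNA-binding ubiquitin ligase, had 437 footprints on 9645 RNA counts and a log2 ratio of -0.41 (-0.55 to -0.27). Its relatives were lower, with Mex3b at -1.75, Mex3c at -2.09 and Mex3d at -2.76.

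Olfactory receptors, each expressed by few neurons, had a median of 1.42, with 164 of 241 high and 1 low. Of all genes, 17.3% were high and 19.4% low. The 241 were those that passed the footprint minimum, however, and 809 more receptors had at least 50 RNA counts and too few footprints. A receptor with little RNA could enter only with a high ratio, so this count is no support for a high class. Summing over all 1104 receptors avoids the minimum. The summed footprints were 0.833% of the total and the summed RNA 0.433%, a log2 ratio of 0.67 in the Ngn1 control, 1.05 in the Ngn1 KO, 0.98 in the OMP control and 0.91 in the OMP KO. For the 48 receptors with at least 1000 RNA counts and no footprint minimum the median was 0.39. Olfr73 was among the highest at 3.52 in the Ngn1 control and 3.41 to 3.97 elsewhere. Olfr55 was the lowest at -1.07, against 1.14 to 1.66 elsewhere, with 2300 RNA counts in the Ngn1 control column. Reads shared between near-identical receptors may have been counted unevenly.

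Regulatory proteins of the nucleus sat low. Of 223 zinc finger proteins, 87 (39.0%) were low and 6 (2.69%) high, against 19.4% and 17.3% of all genes, with a median of -0.78. Summed over all 457 in the table, the log2 ratio was -1.14 in the Ngn1 control, -1.08 in the Ngn1 KO, -1.17 in the OMP control and -0.91 in the OMP KO. Zfp236 (-3.36), Zfp664 (-3.32) and Zfp523 (-3.07) were the lowest, and Zfp953 (1.74) the highest. Under 12 alternatives, like coding length and no footprint minimum included, the class median lay between -0.94 and -0.60, and in the OMP KO columns it was -0.46. Chromatin remodelling and genome folding genes had quartiles of -1.65 and -0.46, with 22 of 44 low and 1 high. Chd2, a chromatin remodeller, and the histone methyltransferases Kmt2a and Kmt2d were the lowest, at -2.94, -2.87 and -2.58, and Ctcf, the genome-folding factor, stood at 0.78. These genes are long, with a median coding length of 4940 bases, and against genes of like length their median was -0.12.

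Genes of mRNA turnover and silencing also had medians below 0, read against 17.3% of all genes high and 19.4% low. The median was -0.69 for 18 Argonaute, Tnrc6, Pumilio and Zfp36 genes (0 high, 6 low) and -0.46 for 15 CCR4-NOT genes (1 high, 5 low). Against genes of like coding length these medians were -0.63 and -0.66. The counts of low genes were not compared at like length. Tnrc6a, a scaffold of miRNA silencing with a coding length of 5904 bases, had -3.09, and Cnot7, a deadenylase, had -2.37. Immediate early genes were split, with Fosb at -2.83, Jund at -2.12 and Egr1 at -1.97, but Btg2 at 1.01 and Ier2 at 0.92.

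**Figure D3:**
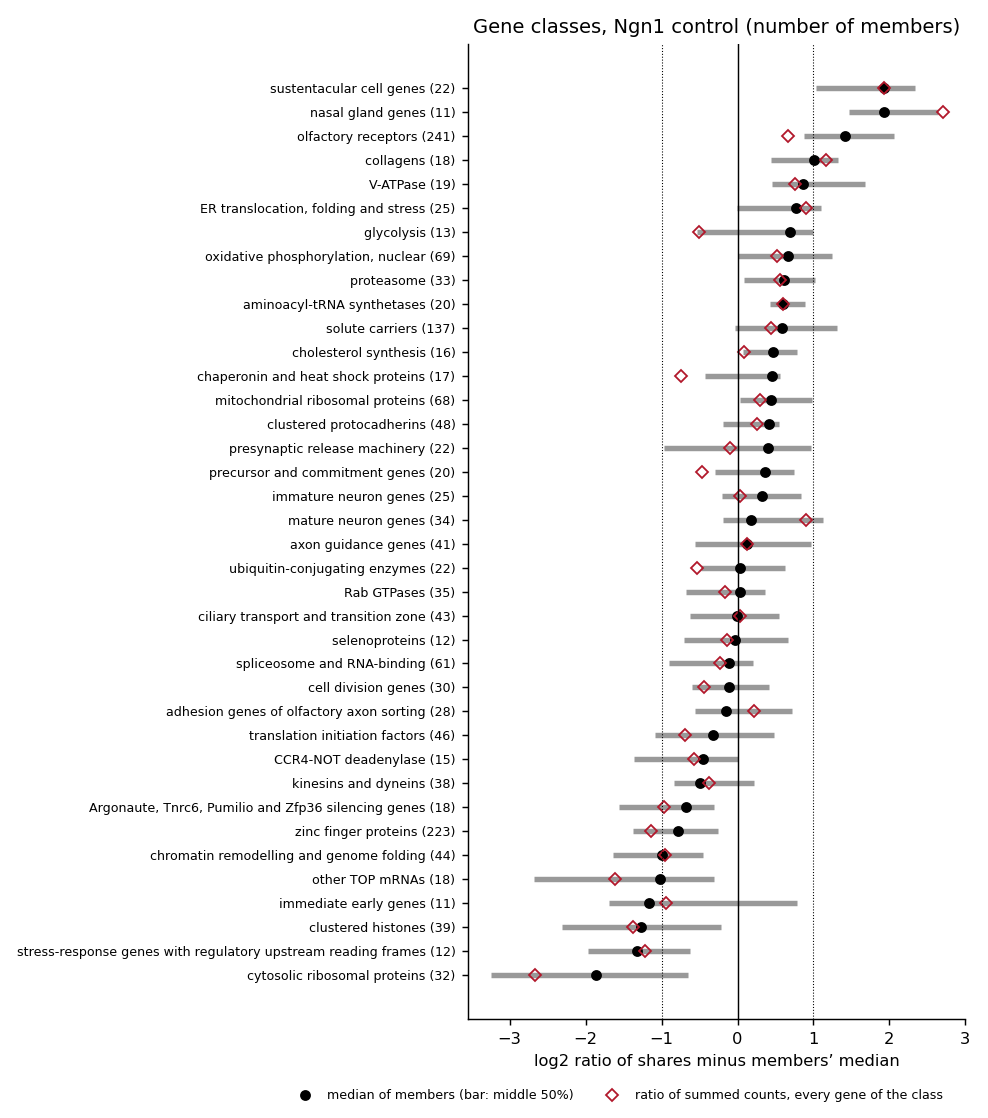
Log2 ratio of each gene class with at least 10 members in the Ngn1 control. Black points are medians over the members and grey bars their middle 50%, and red diamonds are the ratio of counts summed over every gene of the class; for olfactory receptors the diamond (0.67) lies under the median (1.42), and for ribosomal proteins (-2.67) likewise.

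The sums and the medians differed in sign for 9 classes. Glycolysis had a median of 0.70 and a sum of -0.51, and the chaperones had 0.45 and -0.74. The others were presynaptic genes (0.41 and -0.10), precursor genes (0.36 and -0.46), ubiquitin-conjugating enzymes (0.04 and -0.54), Rab GTPases (0.03 and -0.16), replication-independent histones (0.02 and -0.80), ciliary genes (-0.01 and 0.04) and axon-sorting adhesion genes (-0.15 and 0.21). The sums, like the medians, are centred on the members' median and not on equal shares of the column totals. Of the negative sums, only those of presynaptic genes (0.419% of footprints on 0.371% of RNA counts) and Rab GTPases (0.336% on 0.311%) had the larger share in footprints. For these classes no direction is given.

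The ratio was lower for genes with longer coding sequences. In 5 bins of equal size by coding length, from short to long, the median log2 ratios were 0.45, 0.43, 0.13, -0.18 and -0.77. Of the 936 genes with 3813 coding bases or more, 50.3% were 2-fold below the median and 2.88% 2-fold above. Spearman's rho across the 9354 genes was -0.39, which is a description over genes that share 1 pair of columns. In the columns that the ranking did not use it was -0.43 in the Ngn1 KO, -0.45 in the OMP control and -0.39 in the OMP KO. Within 5 bins of RNA level, taken from the OMP control, it ranged from -0.56 to -0.20. With at least 1000 RNA counts and no footprint minimum it was -0.24 over 9139 genes. Pearson's r with log2 length was -0.36 among members and -0.084 under this filter.

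The relation with RNA level depended on the count minimums. Among members, the lowest of 5 bins by RNA level in TPM (RNA counts per length, scaled to a common total) had a median of 0.72 and the highest bin -0.23, with a rho of -0.29. With at least 1000 RNA counts and no footprint minimum, the bin medians lay between -0.065 and 0.062, rho was -0.012 and Pearson's r with log2 TPM was -0.12. With at least 1000 RNA counts and the footprint minimum kept, rho was -0.081, and with at least 50 RNA counts and no footprint minimum it was -0.12. Taking the RNA level from the OMP control or the Ngn1 KO with at least 1000 RNA counts and no footprint minimum gave a rho of 0.045 and 0.051. The RNA count of a gene stands in its level and in the denominator of its ratio, so these measures are not independent.

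**Figure D4:**
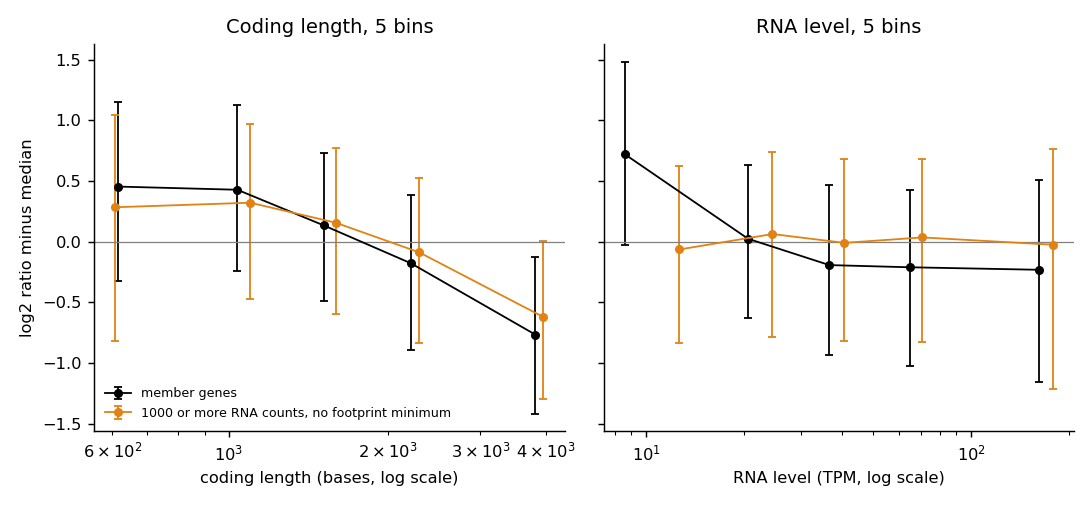
Median log2 ratio (points) and middle 50% (bars) in 5 equal bins of coding length (left, bases) and of RNA level (right, TPM), both on log axes, in the Ngn1 control. Members are in black and genes with at least 1000 RNA counts and any footprint count in orange; the fall with length appears in both, from 0.45 to -0.77 and from 0.28 to -0.62, and the fall with RNA level appears in black and not in orange, which differ in both minimums.

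The ranking was closely shared with the columns that it did not use. Spearman's rho across genes was 0.90 with the Ngn1 KO (7681 genes), 0.91 with the OMP control (7486) and 0.82 with the OMP KO (7470). Of the 973 high genes measured in all groups, 941 (96.7%) lay above the median in each other group and 556 were at least 2-fold above in each. Of 1214 low genes, 1169 (96.3%) lay below in each and 750 at least 2-fold below. By the same call 16.5% of genes were high and 18.1% low in the Ngn1 KO, 16.3% and 20.7% in the OMP control, and 16.5% and 20.2% in the OMP KO. The columns share annotation, gene length and base composition, so these shares do not describe biological replication.

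**Figure D5:**
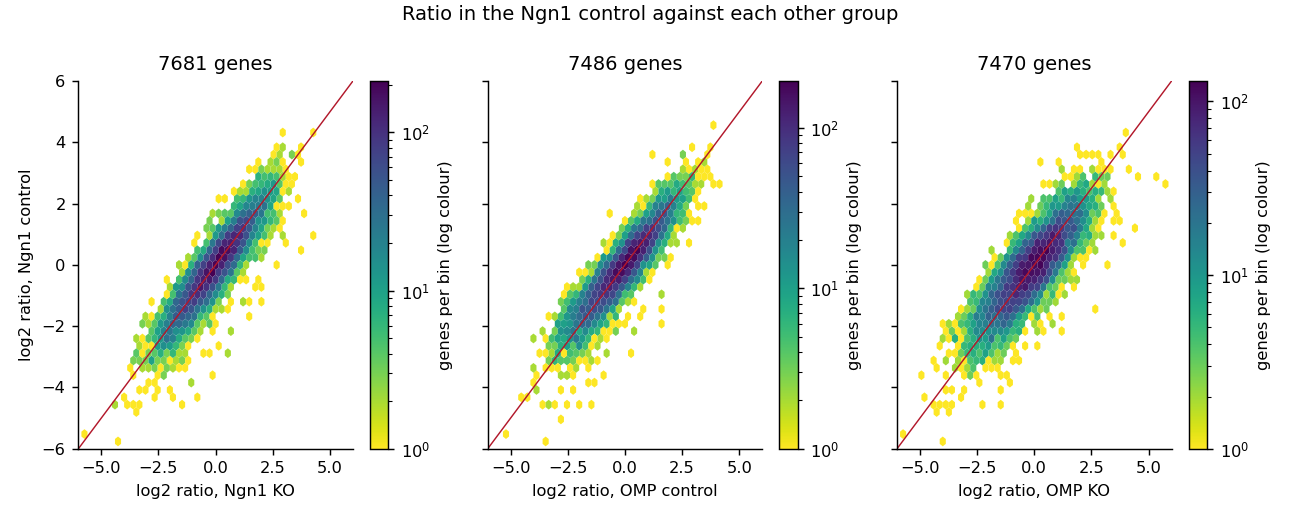
Log2 ratio per gene in the Ngn1 control (vertical) against each other group (horizontal), with colour for the number of genes in each hexagon on a log scale and a line of equal ratio. The genes lie along the line in all panels, with rho of 0.90, 0.91 and 0.82 from left to right.

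Few genes set the Ngn1 control apart. Of 6639 genes with 50 counts in all 8 columns, 36 (0.542%) were 2-fold below each other group with separate intervals and 6 (0.0904%) were 2-fold above. For the 36, the median log2 difference of the Ngn1 control from the median of the other groups was 1.29 in RNA and -0.27 in footprints, with exceptions among single genes. Hspa8 had fewer footprints (50.03 CPM in the Ngn1 control, 68.9 to 124 CPM elsewhere) as well as more RNA (2293 CPM in the Ngn1 control, 1236 to 1395 CPM elsewhere). The 36 included Selenok (-4.64 in the Ngn1 control, -1.37 to -1.59 elsewhere), Ube2s, Ubb, Cox6c, the glycolytic enzyme Eno1 (-1.41, against 0.59 to 0.83), Hsp90aa1, Tuba1a and clustered histones. The 6 genes above were Entpd5, Zfp358, Wwc1, Lrrc58, Ppp2r5d and 1 known only by a clone name. Their RNA differed by -0.21 and their footprints by 1.38 in the median. Entpd5, a nucleotidase of the ER, had a log2 ratio of 1.76 in the Ngn1 control, -0.07 in the Ngn1 KO and -0.69 in the OMP control.

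For the clustered histones, made mainly in dividing cells, the value depended on the RNA column. The 39 in the ranking had a median of -1.27 in the Ngn1 control, with 20 low and 3 high. Of all genes, 19.4% were low and 17.3% high. Over the 20 measured in all groups the median was -0.37 in the Ngn1 control, 0.13 in the Ngn1 KO, -0.01 in the OMP control and -0.07 in the OMP KO. With the RNA column of the Ngn1 KO in the denominator the median of 39 was -0.093, and with that of the OMP control it was 1.24. Hist2h4 was the highest at 2.50 and Hist1h2bh the lowest at -3.65. No direction is given for this class.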

How the data were processed

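The submitters' processing notes name cutadapt, FastQC, STAR and build mm10, with no versions. Per the file headers, the authors deposited, for each group, footprint and RNA counts over coding sequences, the coding length, footprint RPKM, RNA TPM and a translational efficiency ratio. The labels list 2 libraries per group, and no source here says how they became 1 column. RPKM and TPM are the authors' deposited values scaled by depth and length.

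Counts were divided by column totals in Python 3.11.15 (scipy 1.17.1, pandas 2.3.3, numpy 2.4.6), and the log2 ratio was centred on the members' median. Members needed 50 counts in both columns, and an RNA level less than 8-fold above each other RNA column. Ratios in other groups were shifted so that genes counted in both groups had the same median as in the Ngn1 control, and were used where both columns had 50 counts. Intervals are exact conditional binomial intervals (95%). Class sums were added after values were seen. Alternatives included TMM scaling (edgeR 4.0.16 in R 4.3.3), the authors' deposited ratio, other minimums, and 1000 RNA counts with no footprint minimum and 0.5 added to footprints. The ratio and its intervals were tested on simulated data. Plots used matplotlib 3.10.9.

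The members and the 44 gene lists were chosen with earlier results of these data known. Named genes are the 12 highest and 12 lowest with at least 200 counts in both columns and no predicted or clone name, by the interval bound nearest the median, the 8 with most footprints, up to 3 at each end of a class, the Mex3 family and 4 genes at each edge of the rule. Others named for missing footprints or for standing apart from other groups were chosen after their values were seen. Positions and start sequences are from RefSeq (GRCm38.p6), with 9250 members matched by position and 7462 with a start sequence. A few items among those the naming rule selects, and the driver of the Cre allele, are not reported here.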

Additional observations from a re-analysis of the deposited data

Results flagged for a closer look

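In the Ngn1 control 5 genes had at least 50 footprints and fewer than 50 RNA counts, and so no comparison above uses them. Sh2d2a, a T-cell adaptor, had 269 footprints on 6 RNA counts in the Ngn1 control, 306 on 0 in the Ngn1 KO, 96 on 0 in the OMP control and 373 on 0 in the OMP KO. Krt36, a hair keratin, had 153 footprints on 0 RNA counts in the Ngn1 control, 153 on 0 in the Ngn1 KO, 70 on 0 in the OMP control and 235 on 0 in the OMP KO. Vsig8 had 63 footprints on 31 RNA counts in the Ngn1 control and 235 on 0 in the OMP KO. Cyp2e1 (72 on 48) and Rab26 (68 on 34) lay just under the RNA minimum.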

How the results depend on the processing

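No paired analysis was possible because the columns carry no replicate, and for the same reason no library could be left out. The alternative length from protein sequences was not run. The call counts moved by more than 1.5 times only with a minimum of 200 counts, which left 4799 genes, 716 high and 822 low; set against column totals, 2302 were high and 1342 low. The rho with coding length was -0.34, -0.44 and -0.49 with minimums of 20, 100 and 200, -0.24 with the RNA filter alone (at least 1000 RNA counts, no footprint minimum) and -0.44 with the RNA column of the Ngn1 KO. The rho with RNA level was -0.32, -0.25 and -0.19 with those minimums, -0.012 with the RNA filter alone, -0.081 with 1000 RNA counts and the footprint minimum kept, -0.12 with 50 RNA counts and no footprint minimum (both added after seeing the data), -0.25 and -0.26 with the RNA column of the Ngn1 KO and of the OMP control in the ratio, and -0.27 with the level of either. With both the other level and the RNA filter it was 0.045 for the OMP control and 0.051 for the Ngn1 KO. The rho between groups at minimums of 20, 100 and 200 was 0.87, 0.92 and 0.94 for the Ngn1 KO, 0.89, 0.92 and 0.93 for the OMP control, and 0.80, 0.84 and 0.85 for the OMP KO.

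Class medians moved as follows; columns of another group replace both columns unless only RNA is named, and alternatives with another RNA column or without genes that have a named pseudogene were chosen after seeing the data. Ribosomal proteins: -2.86, -0.91 and -0.63 at minimums of 20, 100 and 200, -5.42 with the RNA filter, -1.35 and -1.10 with the RNA of the Ngn1 KO and OMP control, -0.61 without genes with a pseudogene, -2.35 at like length, and -1.04, -0.84 and -1.26 in the Ngn1 KO, OMP control and OMP KO. Stress-response genes: -1.62 in the Ngn1 KO and -1.03 in the OMP KO. Nuclear oxidative phosphorylation: 0.92 with the RNA filter, 0.84 with the RNA of the Ngn1 KO, 0.30 at like length, 0.94 in the OMP control and 0.58 in the OMP KO. Mitochondrially encoded genes: -2.74 at 200 counts, -2.31 with the RNA filter, -2.24 with the RNA of the OMP control, -2.88 at like length, -1.92 in the OMP control and -3.21 in the OMP KO. ER genes: 0.84 at 200 counts, 1.09 with the RNA filter, 0.53 and 0.57 with the RNA of the Ngn1 KO and OMP control, 0.72 at like length, and 0.45, 0.37 and 0.34 in the Ngn1 KO, OMP control and OMP KO. Olfactory receptors: 2.11 at 200 counts, 0.39 with the RNA filter, 0.60 at like length, and 1.85, 1.78 and 1.74 in the Ngn1 KO, OMP control and OMP KO. Zinc finger proteins: -0.46 in the OMP KO. Chromatin genes: -0.80 with the RNA filter, -1.19 with the RNA of the Ngn1 KO, -0.90 without genes with a pseudogene, -0.12 at like length and -0.83 in the Ngn1 KO. Sustentacular genes: 1.83 at 200 counts, 2.24 with the RNA filter, 3.58 and 5.14 with the RNA of the Ngn1 KO and OMP control, 1.57 at like length, 1.197 in the OMP control and 0.94 in the OMP KO. Histones: -0.78 and -0.52 at minimums of 100 and 200, -0.74 with a 4-fold RNA limit, -1.47 with none, -0.97 with the RNA filter, -0.093 with the RNA of the Ngn1 KO and -1.75 at like length. Their sign turned with the RNA of the OMP control (1.24) and in the Ngn1 KO (0.22), OMP control (0.064) and OMP KO (0.046).

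Signs also turned for smaller classes. Tubulins gave 0.28 at a minimum of 20, 0.12 with the RNA of the OMP control, 0.54 in the OMP control and 0.29 in the OMP KO. Axon-sorting adhesion genes gave 0.11 with the RNA filter and 0.64 at like length. Precursor genes gave -0.029 at like length, -0.047 in the Ngn1 KO and -0.24 in the OMP KO. With the RNA of the OMP control, mature neuron genes gave -0.43, presynaptic genes -0.39 and spliceosome genes 0.031. Presynaptic genes gave -0.044 at like length, spliceosome genes 0.14 with the RNA filter and 0.020 in the OMP KO, kinesins and dyneins 0.089 at like length, and collagens -0.22 with the RNA of the Ngn1 KO. The cause of these shifts was not tested. Depth limits low genes most, since 50 footprints were worth 11.2 CPM.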

Other observations

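Clustered protocadherins, cell-surface proteins by which neurons tell their own branches from others, had a median log2 ratio of 0.42 over 48 genes. Of these, 34 lay above 0, with 4 (8.33%) high and 0 low, against 17.3% of all genes high and 19.4% low. Another 10 had enough RNA and too few footprints. Pcdhb14 (2.31) and Pcdhb4 (2.22) stood above the rest, and Pcdhac1 was the lowest at -0.41. Ciliary transport genes had a median of -0.01 over 43 genes, with 4 (9.30%) high and 6 (14.0%) low, against 17.3% and 19.4% of all genes. Collagens had a median of 1.01 over 18 genes, with 9 high and 0 low, against 17.3% of all genes high and 19.4% low. Another 19 collagens had enough RNA and too few footprints, and one with little RNA could enter only with a high ratio. Col3a1 RNA was 39.9 CPM in the Ngn1 control, 107 CPM in the Ngn1 KO, 5.46 CPM in the OMP control and 6.05 CPM in the OMP KO.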
